A study of Mus musculus with 49 samples.

Results

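The step from stem cell to absorptive progenitor in the mouse small intestine was examined by comparing 2 RNA-seq libraries labelled enterocyte progenitors (EP) with 3 libraries of Lgr5-GFP-Cre intestinal stem cells. These 5 libraries were taken by their labels from 25 RNA-seq libraries in a series of 49 samples. The series compared crypt cell populations by RNA and by open chromatin, and the RNA libraries alone are used here. EP samples were whole crypts of Atoh1 F/F; Villin-CRE mice, in which a Cre driven by the Villin promoter removes Atoh1 from the intestinal epithelium. The mice received 1 mg tamoxifen on each of 5 days and were killed 3 weeks later, and crypts of the proximal small intestine were freed with EDTA and lysed unsorted. Lgr5-GFP-Cre samples were cells with the highest GFP from untreated Lgr5EGFP-IRES-CRE-ERT2 mice, in which the Lgr5 locus drives GFP. Those crypts were first digested in TrypLE for 45 min at 37 °C and the cells were then sorted. A pair of further groups served as reference points: 2 libraries of stem cells sorted in the same way from Lgr5EGFP-DTR mice, and 2 libraries of unsorted crypts from Atoh1 F/F animals given the Notch inhibitor DBZ. DBZ was given at 48 mg/kg at the start and again after 12 h, with harvest at 38 h. All animals were on a mixed B6;129 background, and no age or sex is stated for them. The labels call the replicates biological, but do not say which share a mouse, litter or day. The p-values therefore rest on spread between libraries, which may not be spread between mice. That spread was estimated over 24 libraries of 11 groups fitted together, not from the compared libraries alone. Genotype, tamoxifen, cell isolation and sorting all differ between EP and the sorted cells and cannot be told apart in this comparison. In bulk samples, fewer cells of a type and less RNA per cell also cannot be told apart.

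Crypts hold stem cells at their base that divide and feed transit-amplifying progenitors. Notch signalling keeps a progenitor absorptive by repressing the transcription factor Atoh1, which is required for goblet, Paneth and enteroendocrine cells. Where Atoh1 is lost, crypt progenitors take the absorptive course towards enterocytes, which digest and take up sugars, amino acids, fats and minerals through a dense brush border of microvilli.

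The deposited tables held raw counts per gene. Total counts were 21601482 and 27371108 in the EP libraries and ranged from 13623911 to 22055980 in the Lgr5-GFP-Cre libraries. Levels are given as CPM, counts brought to a common library total by TMM scaling and not corrected for gene length, and differences as log2 fold changes from edgeR's quasi-likelihood test with Benjamini-Hochberg adjustment over 14837 genes. A gene is said to be called, or to be higher or lower, where its adjusted p was below 0.05. Across genes the log2 CPM of the EP libraries correlated at r = 0.986, the stem cell libraries among themselves at 0.965 to 0.985, and the groups with each other at 0.887 to 0.921. The most abundant gene of the sorted stem cell libraries was the Paneth cell lysozyme Lyz1, with 2.32% to 2.82% of their counts. The largest share in an EP library was 0.643%, for Pla2g4c.

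Atoh1 (RefSeq chr6:64729125-64731245 in GRCm38.p6) stood at 1.56 and 1.81 CPM in EP and at 35.1, 39.7 and 40.0 CPM in Lgr5-GFP-Cre cells. Every EP library was below every stem cell library (log2 -4.49 ± 0.37 (SE), adjusted p = 2.3e-07), which matches the EP genotype label. Atoh1 was also below the DBZ-treated crypts, at 60.9 and 125 CPM (log2 -5.77 ± 0.40 (SE), adjusted p = 6.4e-08). Lgr5 (chr10:115450314-115587780), the gene that carries the reporter, stood at 10.2 and 16.3 CPM in EP against 66.3, 93.9 and 80.3 CPM in the sorted cells, again with no overlap (log2 -2.60 ± 0.42 (SE), adjusted p = 1.5e-04). Lgr5 RNA thus remained measurable in the unsorted crypts, as did the stem cell marker Olfm4 at 1268 and 1563 CPM. Of the defining enterocyte markers, Sis was higher in EP, while Alpi (294 and 222 CPM in EP, 155, 374 and 283 in stem cells), Fabp2 (562 and 705 against 719, 784 and 1388) and Apoa4 (2687 and 1631 against 512, 1372 and 1170.2) were not called. The EP label therefore stands for whole Atoh1-deleted crypts, in which stem cell, proliferation and enterocyte genes were all present.

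Between EP and Lgr5-GFP-Cre cells 5844 of 14837 genes were called, 39.4% of those tested, with 3290 (22.2%) higher and 2554 (17.2%) lower in EP. Of these, 3594 (24.2% of all) differed by at least 1 on the log2 scale. The EP libraries lay entirely above the stem cell libraries for 5138 genes (34.6%) and entirely below them for 3992 (26.9%). The median over all genes was 0.00. The number called fell to 2845 when EP replicate 1 was left out. The balance of directions moved with the method, to 3039 higher and 2903 lower with DESeq2 size factors and 3169 higher and 3255 lower with the DESeq2 Wald test. These shares are the background against which the gene lists below are read. They belong to the fit with all libraries. With either EP library left out fewer genes were called in each direction, so list counts from those fits have a lower background.

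The largest difference upward was in Pla2g4c (chr7:13311507-13360674), a member of the cytosolic phospholipase A2 family. It stood at 5566 and 2926 CPM in EP and at 0.551, 1.42 and 0.699 CPM in the stem cells (log2 12.23 ± 1.97 (SE), adjusted p = 1.4e-04). It was near absent from every stem cell library. The DBZ-treated crypts, also unsorted, held 22.4 and 2.36 CPM. Among the other groups of the series it reached 2476 to 2911 CPM in the sorted cells labelled goblet and 4.88 to 724 CPM in Rbpj-deleted crypts, made with another library kit, and at most 70.3 CPM elsewhere.

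The gasdermin C genes, whose products belong to a family of pore-forming proteins, rose alongside it. Gsdmc2 (chr15:63824328-63845193) stood at 2037 and 1223 CPM in EP and 3.65, 0.965 and 1.75 CPM in stem cells (log2 9.60 ± 1.40 (SE), adjusted p = 5.0e-05). Gsdmc3 (chr15:63857605-63878579) stood at 525 and 327 against 0.413, 0.579 and 0.218 CPM (log2 10.09 ± 1.53 (SE), adjusted p = 7.7e-05). Gsdmc4 (chr15:63891140-63912319) stood at 3002 and 2219.9 against 14.3, 2.96 and 3.71 CPM (log2 8.57 ± 1.28 (SE), adjusted p = 6.4e-05). Like all leading genes named here, they were chosen among called genes without overlap between the groups. The 3 genes are near-identical neighbours, so the division of reads among them is uncertain. DBZ-treated crypts differed widely between replicates, at 102 and 6.82 CPM for Gsdmc2, and against them none of the 3 was called by edgeR with all libraries (log2 4.91, 4.38 and 4.89 for Gsdmc2, Gsdmc3 and Gsdmc4, adjusted p = 0.06, 0.097 and 0.052). All 3 were called higher there by DESeq2, by edgeR with no filter on low counts and without DBZ replicate 1.

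Other genes with the largest upward differences were Mgat4c and Gcnt1, which encode glycosyltransferases, Fut2, which encodes a fucosyltransferase of mucosal glycans, and Fn1, which encodes fibronectin. Mgat4c stood at 171 and 125 CPM in EP and 1.45, 0.643 and 1.05 CPM in stem cells (log2 7.14 ± 0.73 (SE), adjusted p = 1.7e-06), and was also at 57.9 and 73.0 CPM in DBZ-treated crypts. Gcnt1 stood at 27.4 and 14.4 CPM in EP and 0, 0 and 0.306 CPM in stem cells (log2 7.30 ± 1.61 (SE), adjusted p = 0.0018). Fut2 stood at 31.2 and 13.2 CPM in EP and 0.0689, 0 and 0.480 CPM in stem cells (log2 6.63 ± 1.04 (SE), adjusted p = 1.1e-04). Lack of overlap was a condition of the choice for these 3 as well. For Fn1 the EP libraries held 63.0 and 28.9 CPM and the 3 stem cell libraries 3 counts in all, a ratio of 776 (95% counting interval 265 to 3765). The remaining leaders, Dclk1, Rgs22, Cd300lf and Inpp5d, were at 284 to 417, 66.0 to 85.2, 56.5 to 58.5 and 67.9 to 75.0 CPM in the Lgr5-GFP-DTR cells. Gcnt1 stood at 6.34 and 26.1 CPM there and Fut2 at 8.41 and 10.7 CPM, and neither was called against that sort (adjusted p = 0.86 and 0.28). These 6 genes were therefore low in the Lgr5-GFP-Cre sort but not in both stem cell sorts.

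The leading genes in the other direction were products of Paneth and goblet cells. Lyz1 stood at 23.9 and 30.6 CPM in EP and 24771, 22502 and 27149.7 CPM in stem cells (log2 -9.83 ± 0.68 (SE), adjusted p = 3.8e-08). The goblet genes Zg16, Tff3 and Fcgbp and the Paneth alpha-defensins Defa3, Defa17, Defa21, Defa24 and Defa26 had log2 differences between -9.11 and -11.41. Defa5 had 3 counts in EP, a ratio of 1131 (95% counting interval 387 to 5488). Pla2g2a, a secreted antibacterial phospholipase, was near absent from EP (0.200 and 0.635 CPM) and varied among stem cell libraries (7671, 84.0 and 1128 CPM; log2 -12.72 ± 1.99 (SE), adjusted p = 1.0e-04). The alpha-defensin genes are a family of near-identical copies and their individual values are uncertain. The 23 leading genes plotted here kept their call under each alternative fit and with each library left out.

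**Figure D1:**
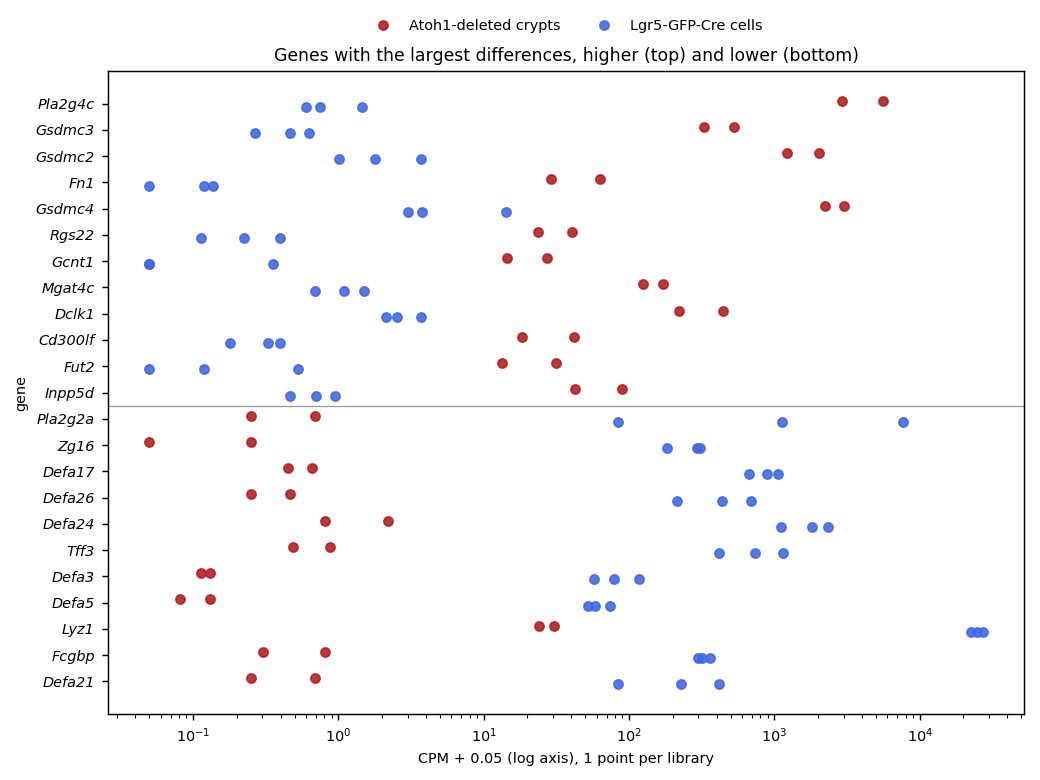
Levels of 23 genes with the largest differences in each library, as CPM + 0.05 on a log axis; red points are the 2 EP libraries (Atoh1-deleted crypts) and blue points the 3 Lgr5-GFP-Cre libraries. The genes were chosen among called genes without overlap between the 2 groups, so the gap between the colours was set by that choice. The stem cell values of Pla2g2a spread over a wide range.

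Brush border hydrolases, the surface enzymes that finish digestion, were higher in EP for 9 of 23 genes and lower for 1, with a median log2 difference of 0.84 against 0.00 over all genes. Sis, sucrase-isomaltase, stood at 827 and 412 CPM in EP and at 30.8, 60.0 and 70.1 CPM in stem cells (log2 3.53 ± 0.52 (SE), adjusted p = 5.8e-05). Both EP libraries were above all stem cell libraries. Enpp3, an ectonucleotidase, stood at 182 and 105 CPM against 2.27, 15.1 and 10.7 CPM (log2 3.93 ± 0.57 (SE), adjusted p = 4.8e-05). Mgam, maltase-glucoamylase, stood at 287 and 216 CPM against 32.4, 54.4 and 59.8 CPM (log2 2.36 ± 0.34 (SE), adjusted p = 5.1e-05). The aminopeptidases Xpnpep2 and Enpep were higher as well (1.76 and 1.75). The alkaline phosphatase Akp3 went the other way, at 1.80 and 1.97 CPM in EP and 36.3, 64.4 and 48.6 CPM in stem cells (log2 -4.71 ± 0.96 (SE), adjusted p = 9.4e-04). Lactase and trehalase were not called: Lct stood at 30.8 and 19.5 CPM in EP and 19.9, 52.3 and 47.3 CPM in stem cells, and Treh at 34.4 and 28.2 against 20.6, 57.9 and 55.2 CPM. With EP replicate 1 left out 5 were called higher, and with Lgr5-GFP-Cre replicate 1 left out 2 were called lower.

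A short stretch upstream of Sis is shown because Sis had the largest difference among the disaccharidases. The motif TTTATNG, searched on both strands in the 250 bases before the annotated start, is the short form of a site bound by caudal-type (Cdx) factors. Of the 23 hydrolase genes, 20 matched an entry of the RefSeq promoter table for GRCm38.p6, and 5 held the motif, 2 of them called higher, against 9.81% of 32851 promoters. The motif was chosen with the expression values known, and a match is a description, not evidence of binding. Capitals mark the match, which here is on the opposite strand, in chr3:72967864-72967943, minus strand, which ends at the base before the start.
Sis: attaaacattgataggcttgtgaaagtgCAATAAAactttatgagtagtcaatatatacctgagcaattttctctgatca

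Fat handling genes were called at a share near that of all genes, 5 of 27 higher and 2 lower. Apob, the structural protein of chylomicrons, stood at 807 and 424 CPM in EP and 64.8, 132 and 107 CPM in stem cells (log2 2.61 ± 0.46 (SE), adjusted p = 3.0e-04). Mttp, which loads lipid onto it, stood at 1083 and 726 against 163, 339.6 and 304 CPM (log2 1.75 ± 0.38 (SE), adjusted p = 0.0017). Npc1l1, the cholesterol uptake protein of the brush border, stood at 266 and 169 against 29.3, 55.3 and 46.1 CPM (log2 2.32 ± 0.32 (SE), adjusted p = 3.6e-05). The EP libraries lay above all stem cell libraries in each case. Scarb1, a lipoprotein receptor, was lower (1.88 and 3.81 against 16.8, 19.6 and 13.8 CPM; log2 -2.54 ± 0.36 (SE), adjusted p = 4.2e-05). The fatty acid binding proteins Fabp1 (0.46, adjusted p = 0.63) and Fabp2 (-0.60, adjusted p = 0.41) and the apolipoprotein Apoa1 (0.63, adjusted p = 0.38) were not called. With EP replicate 1 left out, 3 genes were called higher and 1 lower.

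Transporters of sugars, amino acids, peptides and nucleosides were higher for 8 of 18 genes and lower for 1, with a median of 1.28. Slc5a1, the sodium-glucose cotransporter, stood at 1689 and 962 CPM in EP and 215, 414 and 368 CPM in stem cells (log2 2.00 ± 0.42 (SE), adjusted p = 0.0013). Slc15a1, the peptide transporter, stood at 43.2 and 24.6 against 2.89, 6.50 and 7.03 CPM (log2 2.61 ± 0.58 (SE), adjusted p = 0.0018). Slc1a1, which carries glutamate and aspartate, stood at 264 and 200.1 against 26.7, 57.1 and 52.6 CPM (log2 2.35 ± 0.32 (SE), adjusted p = 3.0e-05). No stem cell library reached the EP values for these 3. The cystine and basic amino acid carrier Slc7a9 (1.83) and the nucleoside carrier Slc28a2 (2.93) were also higher. The fructose transporter Slc2a5 (138 and 72.3 against 18.5, 64.0 and 53.7 CPM) and the neutral amino acid transporter Slc6a19 (91.8 and 61.6 against 12.0, 45.4 and 32.4 CPM) lay above every stem cell library in EP but were not called (adjusted p = 0.082 and 0.078). The counts were 5 higher and 0 lower without EP replicate 1, and 6 higher and 0 lower without Lgr5-GFP-Cre replicate 1. The lower gene was the nucleoside carrier Slc29a1.

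Ion, vitamin and mineral transport genes were higher for 11 of 22 and lower for 3. Slc9a3, the sodium-hydrogen exchanger of the brush border, stood at 41.8 and 12.8 CPM in EP and 1.86, 1.61 and 1.83 CPM in stem cells (log2 3.94 ± 0.46 (SE), adjusted p = 7.3e-06). Tfrc, the transferrin receptor for iron, stood at 540.2 and 582 against 91.3, 103 and 118 CPM (log2 2.43 ± 0.24 (SE), adjusted p = 1.2e-06). These values were well separated, and the EP libraries agreed closely for Tfrc. The iron exporter partner Heph (1.98), the chloride exchanger Slc26a3 (2.13) and the phosphate carriers Slc20a1 (2.37) and Slc34a2 (2.63) were higher too. The iron reductase Cybrd1 went down, at 0.241 and 0.350 CPM in EP and 4.82, 4.76 and 2.80 CPM in stem cells (log2 -3.76 ± 0.68 (SE), adjusted p = 3.8e-04), as did Amn of the vitamin B12 receptor (-2.03). The iron transporters Slc11a2 (-0.13, adjusted p = 0.68) and Slc40a1 (-0.15, adjusted p = 0.92) were not called, so the iron genes did not share a direction. The higher count was 7 without EP replicate 1.

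Structural genes of the microvillus were higher for 13 of 23 and lower for 1, against 22.2% and 17.2% of all genes. Most of these calls were lost without EP replicate 1, a fit with 1 EP library in which calls over all genes also fell. Members higher with each library left out were Tmigd1, an adhesion protein of the brush border, Mall, a membrane raft protein, and Lima1, an actin-binding protein. Tmigd1 stood at 2.93 and 4.23 CPM in EP and 0.482, 0.386 and 0.349 CPM in stem cells (log2 3.14 ± 0.71 (SE), adjusted p = 0.0022). Mall stood at 79.7 and 68.8 against 23.2, 19.8 and 27.6 CPM (log2 1.66 ± 0.29 (SE), adjusted p = 2.5e-04). Neither gene overlapped between the groups. Villin, Vil1, was not called (739 and 554 against 348, 528 and 406 CPM; log2 0.60 ± 0.28 (SE), adjusted p = 0.094). Cdhr2, an intermicrovillar cadherin, was called with all libraries (log2 1.48 ± 0.43 (SE), adjusted p = 0.011) but not without EP replicate 1 or Lgr5-GFP-Cre replicate 1. The lower member, Baiap2l2, was not called without EP replicate 1, EP replicate 2 or Lgr5-GFP-Cre replicate 2.

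Junction and adhesion genes were called in both directions, with 7 of 22 higher and 4 lower, against 22.2% and 17.2% of all genes. The desmosomal cadherins were higher: Dsg2 stood at 364 and 263 CPM in EP and 65.4, 82.0 and 85.0 CPM in stem cells (log2 2.02 ± 0.24 (SE), adjusted p = 6.6e-06), and Dsc2 at 231 and 199 against 54.8, 71.8 and 71.5 CPM (log2 1.70 ± 0.23 (SE), adjusted p = 2.9e-05). The tight junction scaffold Tjp1 (1.71) and the intestinal cadherin Cdh17 (1.39) were higher as well. The claudins Cldn2, a cation pore of crypts, and Cldn3 were lower (96.9 and 129 against 373, 292 and 298 CPM for Cldn2; log2 -1.51 ± 0.31 (SE), adjusted p = 9.6e-04; -1.33 for Cldn3). EP and stem cell libraries did not overlap for any of these 6 genes. Epcam, the epithelial adhesion molecule, gave 2053 and 2147 CPM in EP and 1939.9, 1703 and 1886 CPM in stem cells (log2 0.19 ± 0.16 (SE), adjusted p = 0.37). Leaving out either EP library left 2 genes called lower.

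**Figure D2:**
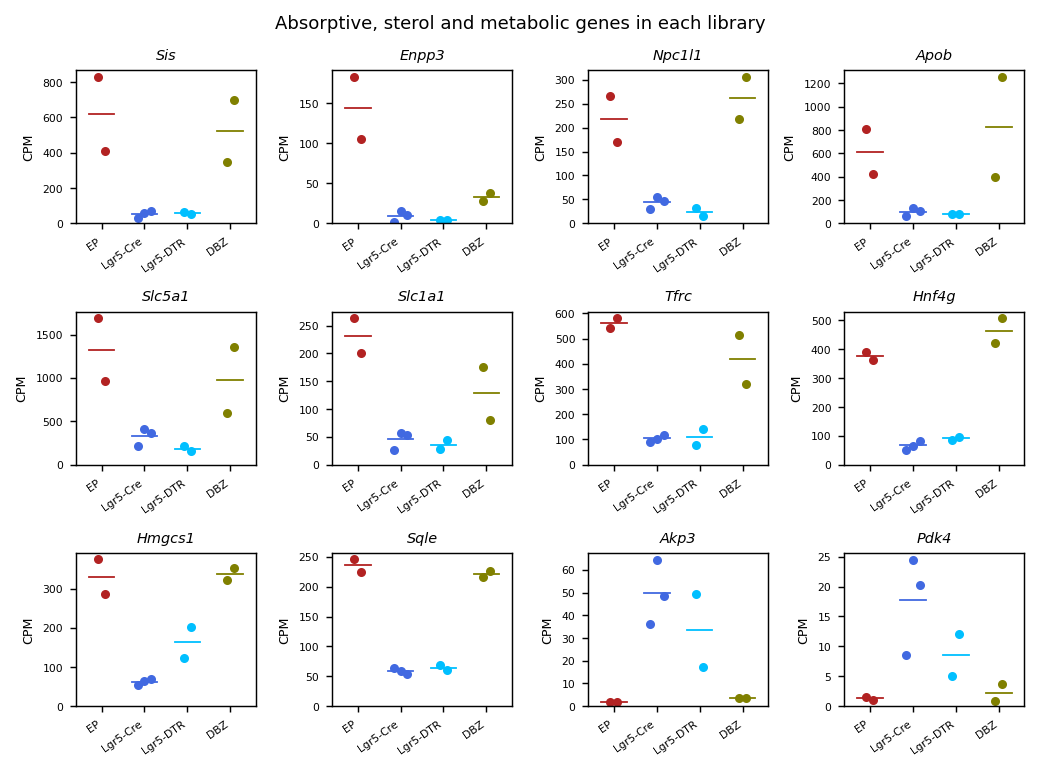
Level of 12 absorptive, sterol and metabolic genes in each library, in CPM on linear axes from 0; points are libraries and short lines group means, for EP, Lgr5-GFP-Cre cells, Lgr5-GFP-DTR cells and DBZ-treated crypts. EP values lie above both sorted stem cell groups for the first 10 genes and below both for Akp3 and Pdk4.

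Among transcription factors of enterocytes 5 of 24 were higher and 4 lower, a share near that of all genes. Hnf4g, a nuclear receptor of enterocyte genes, stood apart at 392 and 362 CPM in EP and 52.5, 65.8 and 82.0 CPM in stem cells (log2 2.50 ± 0.31 (SE), adjusted p = 1.1e-05). Its paralogue Hnf4a was not called (588 and 516 against 433, 530.1 and 444 CPM; log2 0.24 ± 0.19 (SE), adjusted p = 0.33), nor was the intestinal identity factor Cdx2 (129 and 119 against 146, 218 and 133 CPM; log2 -0.42 ± 0.32 (SE), adjusted p = 0.3). The vitamin D receptor Vdr was lower (397 and 348 against 657, 988 and 785 CPM, log2 -1.12 ± 0.26 (SE), adjusted p = 0.0023). Prdm1, a transcriptional repressor, was higher from a low level (3.77 and 2.89 against 0, 0.579 and 0.480 CPM, log2 3.16 ± 0.62 (SE), adjusted p = 6.9e-04). The counts were 2 higher and 1 lower without EP replicate 1, 3 higher and 2 lower without EP replicate 2, and 4 higher and 2 lower without Lgr5-GFP-Cre replicate 2.

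Genes of fat burning were called in both directions, with 3 of 23 higher and 5 lower, against 22.2% and 17.2% of all genes. Ppargc1a, a coactivator of mitochondrial genes, stood at 59.5 and 38.3 CPM in EP and 6.96 to 11.3 CPM in stem cells (log2 2.32 ± 0.31 (SE), adjusted p = 2.2e-05), and Cpt1a, the gate for fatty acids into mitochondria, was higher (1.27). Pdk4, which restrains glucose oxidation, was lower (1.48 and 1.08 against 8.54, 24.4 and 20.3 CPM; log2 -3.80 ± 0.62 (SE), adjusted p = 1.6e-04). The groups did not overlap for any of the 3. The number of lower genes was 3 without EP replicate 1.

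Detoxification genes were also called in both directions, with 6 of 31 higher and 8 lower, against 22.2% and 17.2% of all genes. The drug exporter Abcb1a (75.2 and 74.8 against 10.8, 17.4 and 17.7 CPM; log2 2.29 ± 0.42 (SE), adjusted p = 4.0e-04) and the aryl hydrocarbon receptor Ahr (28.5 and 26.2 against 7.58, 7.40 and 10.2 CPM; log2 1.70 ± 0.44 (SE), adjusted p = 0.0057) were higher. The cytochrome Cyp2b10 (3.33 and 6.35 against 39.5, 113 and 95.3 CPM; log2 -4.08 ± 0.90 (SE), adjusted p = 0.0018) and the glucuronosyltransferase Ugt2b5 (-3.06) were lower. Each of the 4 was separated without overlap. These counts became 2 and 2 without EP replicate 1, and 3 higher without EP replicate 2. In retinoid metabolism 2 of 11 were higher and 3 lower, and without EP replicate 1 the lower count was 0 and without EP replicate 2 it was 1. In sugar metabolism and citrulline synthesis 2 of 15 were higher and 2 lower. The ornithine aminotransferase Oat was the lower gene that kept its call with each library left out (1125 and 1212 against 3468, 2968 and 2998 CPM; log2 -1.43 ± 0.25 (SE), adjusted p = 3.0e-04). That list gave 0 higher and 1 lower without EP replicate 1, and 4 lower without Lgr5-GFP-Cre replicate 1.

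Cholesterol synthesis moved in a single direction. Of 21 genes of the pathway and its control 16 were higher in EP, 0 were lower and 5 were not called, with a median of 1.12. Hmgcs1, which makes HMG-CoA, stood at 376 and 287 CPM in EP and 54.3, 64.0 and 69.1 CPM in stem cells (log2 2.41 ± 0.19 (SE), adjusted p = 1.8e-07). Sqle, squalene epoxidase, stood at 247 and 225 against 64.3, 59.3 and 53.2 CPM (log2 2.00 ± 0.16 (SE), adjusted p = 1.6e-07). The libraries of each group lay close together and the groups far apart. Further along the pathway, Idi1 (1.89), Lss (1.12), Cyp51 (1.96), Msmo1 (1.74) and Sc5d (1.20) were higher. Those not called included Mvk, Nsdhl, Mvd and Pmvk, with log2 differences from 0.21 to 0.43. The DBZ-treated crypts were at levels close to those of EP, for example 321 and 352 CPM for Hmgcs1 and 216 and 226 CPM for Sqle. Against them edgeR called 2.46% of all genes and 0 of these 21 (2 lower at an unadjusted p below 0.05, and 1 lower by DESeq2). The list median against them was -0.13.

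The promoters of 4 of these genes are shown because they share the box CCAAT close to the start. The letters CCAAT were searched on both strands in the 250 bases before each start. Of the 21 genes, 13 matched an entry of the RefSeq table for GRCm38.p6, and all 13 held the box, 9 of them called higher, while 33.8% of 32851 promoters did. Lists that did not move in a single direction held it as well, with 14 of 16 mitosis genes and 12 of 18 DNA replication genes. The motif was chosen with the expression values known, and a match is a description of letters. Capitals mark CCAAT, or ATTGG where it lies on the other strand. The windows are chr13:119690271-119690350, plus strand for Hmgcs1, chr13:8885526-8885605, plus strand for Idi1, chr10:76531525-76531604, plus strand for Lss and chr5:4104698-4104777, minus strand for Cyp51, each ending at the base before the start.
Hmgcs1: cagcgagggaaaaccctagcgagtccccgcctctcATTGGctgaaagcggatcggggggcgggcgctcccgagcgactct
Idi1: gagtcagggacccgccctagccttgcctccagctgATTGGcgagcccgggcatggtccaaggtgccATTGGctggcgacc
Lss: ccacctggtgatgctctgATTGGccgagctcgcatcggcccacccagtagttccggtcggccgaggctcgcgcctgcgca
Cyp51: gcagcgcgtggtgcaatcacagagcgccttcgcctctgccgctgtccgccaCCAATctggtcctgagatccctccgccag

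Host defence genes moved apart. Duox2 (chr2:122279246-122298740) encodes the peroxide-producing oxidase of the apical surface and Duoxa2 (chr2:122298900-122302885), its neighbour on the opposite strand, the factor that carries it there. Duox2 stood at 177 and 92.6 CPM in EP and 3.38, 6.11 and 5.59 CPM in stem cells (log2 4.74 ± 0.60 (SE), adjusted p = 1.6e-05). Duoxa2 stood at 315 and 199 against 7.51, 3.35 and 5.72 CPM (log2 5.54 ± 0.76 (SE), adjusted p = 3.1e-05). Both were low in every stem cell library. The antimicrobial lectin Reg3a (2.12 and 5.53 against 51.9, 50.4 and 82.2 CPM; log2 -3.99 ± 0.73 (SE), adjusted p = 4.3e-04) and Reg1 (30.5 and 11.9 against 508, 439.8 and 729 CPM; log2 -4.73 ± 0.77 (SE), adjusted p = 1.5e-04) were lower. Reg3b and Reg3g spread so widely within groups (145 and 452 against 1625, 142 and 408 CPM for Reg3b) that neither was called. The list as a whole gave 6 of 16 higher, among them the Gsdmc genes, and 4 lower; the lower count was 2 without EP replicate 1, without EP replicate 2 or without Lgr5-GFP-Cre replicate 2.

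Among 13 genes reported to mark the villus tip, 5 were higher and 2 lower. The purine pair Nt5e and Ada, which turn adenosine monophosphate into adenosine and adenosine into inosine, led. Nt5e stood at 54.1 and 23.8 CPM in EP and 0, 1.03 and 1.09 CPM in stem cells (log2 5.68 ± 0.88 (SE), adjusted p = 9.9e-05). Ada stood at 381 and 241 against 21.4, 36.4 and 39.4 CPM (log2 3.26 ± 0.51 (SE), adjusted p = 1.1e-04). Neither overlapped between groups, and Ada stood at 47.5 and 57.4 CPM in DBZ-treated crypts. The lower members were Fos and Junb, which are immediate early genes and are described below. Apoa4 and Creb3l3 were not called (adjusted p = 0.18 and 0.5).

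**Figure D3:**
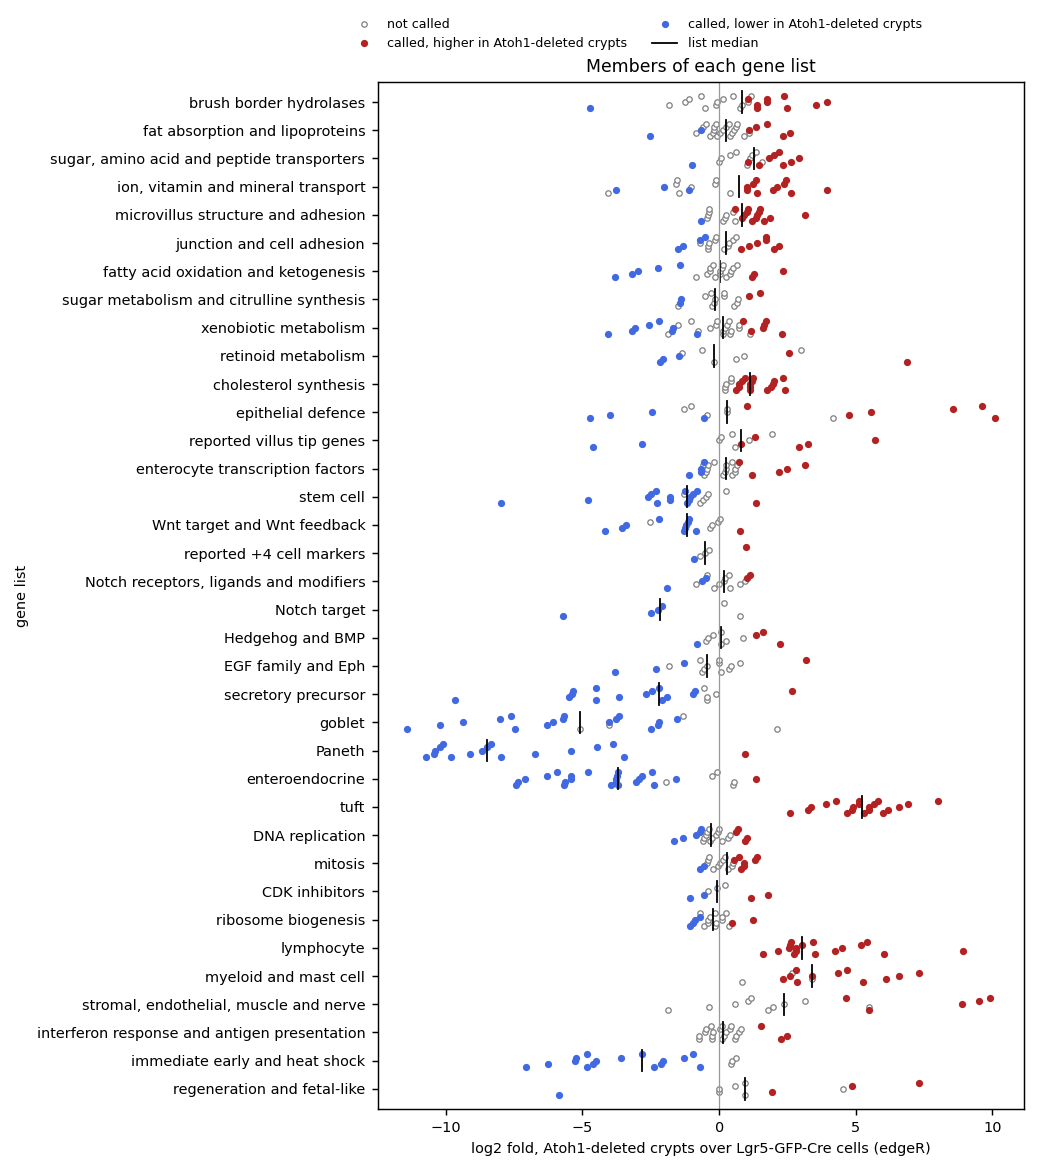
log2 differences of EP over Lgr5-GFP-Cre cells for the tested members of 36 gene lists (a red blood cell list with 1 tested gene is left out); filled red and blue points were called higher and lower, open points were not called, and black bars are list medians. Cholesterol synthesis and tuft lists lie to the right, stem cell, Wnt, secretory and immediate early lists to the left, and many metabolic lists around 0.

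Stem cell genes were lower in EP for 14 of 21 and higher for 1, with a median of -1.18. With EP replicate 1 left out 7 were lower and 0 higher. Ascl2, a transcription factor of Lgr5 cells, stood at 58.4 and 62.6 CPM in EP and 263, 185 and 178 CPM in stem cells (log2 -1.78 ± 0.39 (SE), adjusted p = 0.0017). Igfbp4, a binding protein of insulin-like growth factors, stood at 40.7 and 58.7 against 283, 308 and 256 CPM (log2 -2.50 ± 0.31 (SE), adjusted p = 1.1e-05). Tnfrsf19, a receptor of the tumour necrosis factor family, stood at 0.200 and 0.0318 against 22.4, 35.8 and 28.4 CPM (log2 -7.97 ± 0.80 (SE), adjusted p = 1.4e-06). Each was separated without overlap, and Tnfrsf19 was near absent from EP. Tnfrsf19 was also lower than in DBZ-treated crypts (6.83 and 1.83 CPM; log2 -5.24 ± 0.79 (SE), adjusted p = 4.1e-04). Cyp2e1 (-4.82) and Cdca7 (-1.18) were lower as well.

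Other stem cell genes showed smaller differences. Olfm4 stood at 1268 and 1563 CPM in EP and 4126, 5802 and 4934 CPM in stem cells (log2 -1.81 ± 0.66 (SE), adjusted p = 0.037). The groups did not overlap, yet the call was lost without EP replicate 1, EP replicate 2, Lgr5-GFP-Cre replicate 2 or Lgr5-GFP-Cre replicate 3. Smoc2, a matricellular protein, stood at 309 and 382 against 611, 747 and 667 CPM (log2 -0.97 ± 0.25 (SE), adjusted p = 0.0056), a call lost without EP replicate 1. Not called were Lrig1 (log2 -0.70 ± 0.33 (SE), adjusted p = 0.097), Slc12a2 (log2 -0.40 ± 0.24 (SE), adjusted p = 0.19), Aqp4 (log2 -0.49 ± 0.34 (SE), adjusted p = 0.27) and Prom1 (log2 0.24 ± 0.32 (SE), adjusted p = 0.59). The higher member was Mecom (log2 1.34 ± 0.31 (SE), adjusted p = 0.0026), and its call was lost without EP replicate 1. Of genes reported for the cells at position +4, Bmi1 was higher (36.1 and 38.8 against 18.1, 20.1 and 18.9 CPM; log2 0.97 ± 0.16 (SE), adjusted p = 1.4e-04), Hopx was lower (147 and 173 against 392, 214 and 303 CPM; log2 -0.92 ± 0.20 (SE), adjusted p = 0.0015), and the other 3 were not called.

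Targets and feedback genes of Wnt signalling, which maintains stem cells, were lower for 10 of 16 and higher for 1, with a median of -1.17, which became 4 lower and 0 higher without EP replicate 1. Axin2, the feedback inhibitor most used as a readout, stood at 16.1 and 16.5 CPM in EP and 39.0, 42.7 and 38.6 CPM in stem cells (log2 -1.30 ± 0.28 (SE), adjusted p = 0.0016). Sp5, a transcription factor induced by Wnt, stood at 6.61 and 6.77 against 67.9, 98.3 and 68.9 CPM (log2 -3.55 ± 0.31 (SE), adjusted p = 4.1e-07). Nkd1, an inhibitor of Dishevelled, stood at 1.80 and 2.41 against 21.2, 25.3 and 21.7 CPM (log2 -3.42 ± 0.41 (SE), adjusted p = 9.2e-06). In these 3 genes the libraries of a group lay close together and the groups apart. Ephb3, the receptor that positions cells in the crypt, was lower (-2.21), while its relative Ephb2 was not called (26.0 and 29.2 against 20.5, 35.4 and 25.2 CPM; log2 0.03 ± 0.23 (SE), adjusted p = 0.93). Axin2, Sp5 and Nkd1 were at 18.6 and 16.4, 8.48 and 10.0 and 3.62 and 4.47 CPM in the DBZ-treated crypts, and none of the 3 was called against EP (adjusted p = 0.98, 0.65 and 0.36).

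Notch target genes were lower for 4 of 6, 2 of them with either EP library left out. Hes1, the repressor of Atoh1, stood at 44.3 and 59.6 CPM in EP and 244, 203 and 222 CPM in stem cells (log2 -2.10 ± 0.39 (SE), adjusted p = 4.6e-04). Nrarp, a feedback inhibitor, stood at 18.2 and 19.6 against 94.9, 89.8 and 82.3 CPM (log2 -2.23 ± 0.48 (SE), adjusted p = 0.0015). Neither overlapped. Among 15 receptors, ligands and modifiers, 2 were higher and 3 lower. The ligand Dll1 stood at 17.1 and 13.6 CPM in EP and 48.6, 67.6 and 55.7 CPM in stem cells (log2 -1.90 ± 0.30 (SE), adjusted p = 1.1e-04), while the ligand Jag1 (11.4 and 10.2 against 4.82, 5.66 and 4.28 CPM; log2 1.14 ± 0.24 (SE), adjusted p = 0.0013) and the DNA-binding effector Rbpj (44.9 and 45.4 against 19.4, 24.3 and 23.2 CPM; log2 1.02 ± 0.18 (SE), adjusted p = 3.6e-04) were higher. The receptor Notch1 was not called (38.9 and 46.6 against 25.0, 42.4 and 33.1 CPM; log2 0.35 ± 0.28 (SE), adjusted p = 0.33). With either EP library left out, 1 gene was called lower.

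In the Hedgehog and BMP list, whose signals oppose stem cell identity towards the villus, 3 of 11 were higher. They were the ligand Bmp2 (32.3 and 22.8 against 4.27, 8.62 and 4.76 CPM; log2 2.23 ± 0.41 (SE), adjusted p = 4.1e-04) and the receptors Bmpr1a (84.9 and 79.8 against 32.9, 31.3 and 33.5 CPM; log2 1.34 ± 0.18 (SE), adjusted p = 2.1e-05) and Bmpr2 (1.59). The lower member, the BMP target Id1 (-0.79), was not called without EP replicate 1 or Lgr5-GFP-Cre replicate 1. The ligand Ihh was not called (50.9 and 41.8 against 32.2, 45.4 and 38.3 CPM; log2 0.26 ± 0.21 (SE), adjusted p = 0.33). Of 15 EGF family and Eph genes, 1 was higher and 3 were lower; without Lgr5-GFP-Cre replicate 2, 3 were higher. The membrane ligand Efnb2 was the higher one (42.1 and 33.2 against 4.41, 3.15 and 4.72 CPM; log2 3.19 ± 0.33 (SE), adjusted p = 1.9e-06). The EGF receptor ligands Areg (2.45 and 1.33 against 17.3, 27.9 and 33.9 CPM; log2 -3.82 ± 0.55 (SE), adjusted p = 4.6e-05) and Hbegf (8.06 and 7.75 against 35.3, 40.7 and 42.1 CPM; log2 -2.32 ± 0.44 (SE), adjusted p = 5.8e-04) were lower, with no overlap between groups.

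**Figure D4:**
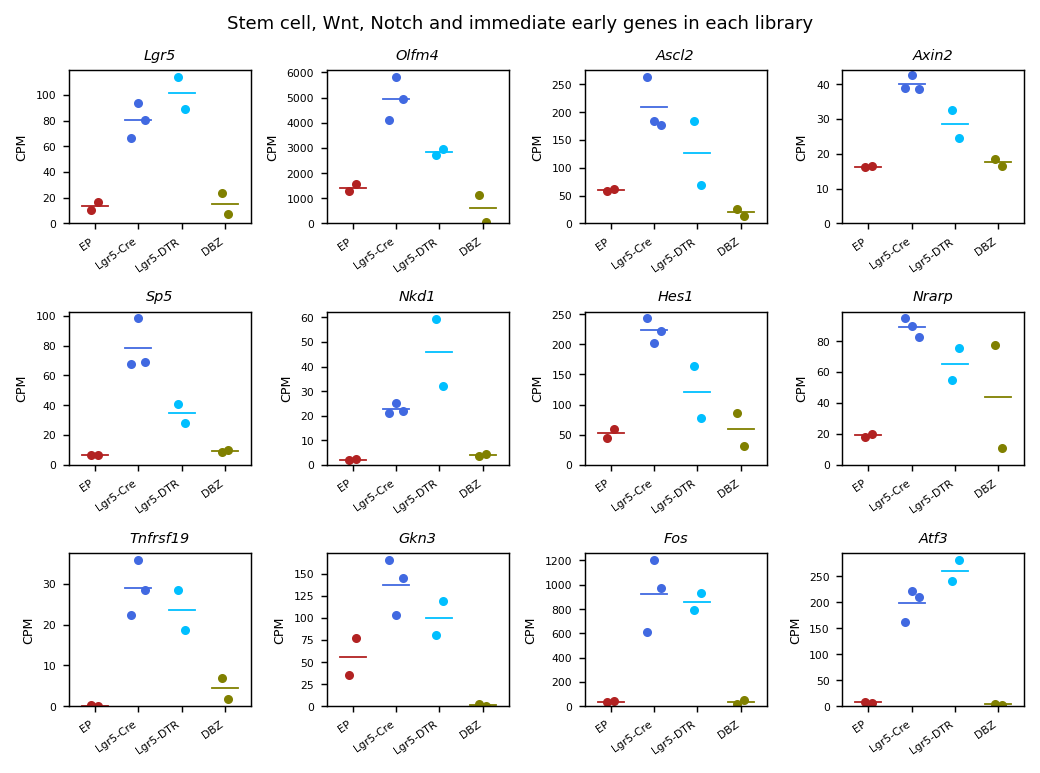
Level of 12 stem cell, Wnt, Notch and immediate early genes in each library, in CPM on linear axes from 0; points are libraries and short lines group means, for EP, Lgr5-GFP-Cre cells, Lgr5-GFP-DTR cells and DBZ-treated crypts. EP values lie below all Lgr5-GFP-Cre values for each of these genes, and Fos and Atf3 are low in both kinds of unsorted crypt and high in both kinds of sorted cell.

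Proliferation genes did not move as a block. Of 20 mitosis genes 7 were higher and 2 lower, with a median of 0.27, and of 22 DNA replication genes 4 were higher and 5 lower, with a median of -0.30. Mki67, the proliferation antigen, stood at 172 and 193 CPM in EP and 92.7, 104 and 97.1 CPM in stem cells (log2 0.90 ± 0.19 (SE), adjusted p = 0.0013). Top2a, a topoisomerase, stood at 292 and 330.0 against 110.2, 124 and 127 CPM (log2 1.37 ± 0.20 (SE), adjusted p = 5.4e-05). Both were higher in each EP library than in each stem cell library. Cdt1, which licenses replication origins, stood at 33.3 and 35.4 against 122, 120.2 and 85.8 CPM (log2 -1.67 ± 0.31 (SE), adjusted p = 4.1e-04), and E2f1, a factor of G1 to S entry, at 15.8 and 19.5 against 44.9, 48.9 and 38.2 CPM (log2 -1.32 ± 0.30 (SE), adjusted p = 0.0021). These were lower without overlap. Pcna (log2 -0.26 ± 0.19 (SE), adjusted p = 0.3) and Ccnb1 (log2 0.13 ± 0.22 (SE), adjusted p = 0.67) were not called. Of 7 inhibitors of cyclin-dependent kinases 2 were higher, including Cdkn2b (83.9 and 67.8 against 14.7, 26.4 and 24.2 CPM; log2 1.80 ± 0.28 (SE), adjusted p = 9.9e-05), and 2 were lower. Of 18 ribosome biogenesis genes 2 were higher and 4 lower.

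These proliferation counts changed with single libraries. Mitosis gave 0 lower without EP replicate 1 or Lgr5-GFP-Cre replicate 1, 1 lower without Lgr5-GFP-Cre replicate 2 or 3, and 4 higher without EP replicate 2. DNA replication gave 0 higher without EP replicate 2, and 2 lower without EP replicate 1 or Lgr5-GFP-Cre replicate 1. The kinase inhibitors gave 1 higher and 0 lower without EP replicate 1, and 1 lower without EP replicate 2 or Lgr5-GFP-Cre replicate 1. Ribosome biogenesis gave 1 higher and 2 lower without EP replicate 1, and 1 higher without EP replicate 2 or Lgr5-GFP-Cre replicate 2 or 3.

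Factors of the secretory precursor were lower for 14 of 19 and higher for 1, with a median of -2.21. Neurog3, which founds the enteroendocrine line, stood at 0.160 and 0.477 CPM in EP and 18.3, 11.1 and 11.9 CPM in stem cells (log2 -5.36 ± 0.92 (SE), adjusted p = 2.2e-04). Spdef, a factor of goblet and Paneth maturation, stood at 0.802 and 1.78 against 26.0, 36.1 and 26.7 CPM (log2 -4.49 ± 0.44 (SE), adjusted p = 1.2e-06). Bhlha15, a factor of secretory architecture, stood at 0.321 and 0.794 against 17.6, 31.8 and 23.7 CPM (log2 -5.40 ± 0.59 (SE), adjusted p = 3.2e-06). All stem cell libraries were above the EP libraries for these 3. Dll3, an atypical Notch ligand, had 0 counts in EP and 6.96, 5.15 and 3.28 CPM in stem cells, at least 90.9-fold lower. The higher member was Kit, a receptor tyrosine kinase (132 and 77.1 against 12.7, 21.9 and 15.3 CPM; log2 2.65 ± 0.40 (SE), adjusted p = 8.4e-05). Xbp1, of the unfolded protein response, was not called (276 and 276 against 352, 269 and 279 CPM; log2 -0.12 ± 0.19 (SE), adjusted p = 0.64).

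Goblet genes were lower for 17 of 21 and higher for 0, with a median of -5.11 (-4.04 with genes at 0 set to their bound). Muc2, the gel-forming mucin, stood at 4.65 and 9.31 CPM in EP and 101, 126 and 114 CPM in stem cells (log2 -4.02 ± 0.38 (SE), adjusted p = 9.9e-07). The higher count was 1 without Lgr5-GFP-Cre replicate 2, and 1 at an unadjusted p below 0.05. Of 17 Paneth genes 16 were lower, with a median of -8.50 (-8.34 with bounds). The antibacterial ribonuclease Ang4 stood at 3.29 and 8.80 against 2844, 1087 and 1970.3 CPM (log2 -8.34 ± 0.98 (SE), adjusted p = 6.9e-06). The exception, Cd24a, was called higher (log2 0.96 ± 0.32 (SE), adjusted p = 0.025), but not without EP replicate 1, Lgr5-GFP-Cre replicate 2 or Lgr5-GFP-Cre replicate 3. Enteroendocrine genes were lower for 22 of 28 and higher for 1, with a median of -3.72. Chgb, a granule protein, stood at 4.37 and 12.3 CPM in EP and 105, 113 and 114 CPM in stem cells (log2 -3.73 ± 0.52 (SE), adjusted p = 3.4e-05), and ghrelin, Ghrl, at 0.200 and 0.286 against 24.5, 14.5 and 21.5 CPM (log2 -6.32 ± 0.58 (SE), adjusted p = 7.8e-07). The higher one, the peptide processing enzyme Cpe (log2 1.36 ± 0.34 (SE), adjusted p = 0.0042), was not called without EP replicate 1. Ddc, which makes amines, was not called (96.3 and 109 against 109, 131 and 125 CPM; log2 -0.25 ± 0.28 (SE), adjusted p = 0.51).

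The summed levels of the secretory lists rested in part on single genes in EP. The summed CPM of the Paneth list were 1079 and 857 in EP and 53449, 42259 and 52827 in stem cells, and those of the goblet list 102 and 162 against 5428, 2879.7 and 4110.1. For enteroendocrine genes the sums were 172 and 187 against 532, 479.6 and 529, the smallest gap of the 3. In each case no EP library reached a stem cell library. Cd24a gave 980 and 683 CPM of the Paneth sums in EP, and Ddc over 50% of each enteroendocrine sum. Without Cd24a the Paneth sums were 98.5 and 175 in EP and 53005, 41872 and 52378 in stem cells, and without Ddc the enteroendocrine sums were 75.8 and 78.5 against 423, 349 and 404. The same lists in DBZ-treated crypts summed to 22178 and 5719, 8762 and 9832 and 661 and 1083 CPM.

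The E-box CAGCTG, a form of the letters bound by Atoh1 and other basic helix-loop-helix factors, was searched on both strands before the starts of these genes, and 3 promoters are shown because their genes were among the lower ones. It was found in 6 of 17 secretory precursor, 3 of 8 goblet, 7 of 25 enteroendocrine and 1 of 12 Paneth genes that matched a RefSeq entry, against 13% of all promoters. The motif was again chosen with the values known, and a match is no sign of binding. Capitals mark the match in chr17:15376933-15377082, minus strand for Dll1, chr7:28301786-28301845, minus strand for Dll3 and chr7:141690210-141690339, plus strand for Muc2.
Dll1: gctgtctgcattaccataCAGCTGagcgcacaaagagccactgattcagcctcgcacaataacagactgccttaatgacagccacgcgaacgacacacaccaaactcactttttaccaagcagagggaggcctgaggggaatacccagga
Dll3: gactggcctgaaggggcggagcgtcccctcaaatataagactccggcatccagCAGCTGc
Muc2: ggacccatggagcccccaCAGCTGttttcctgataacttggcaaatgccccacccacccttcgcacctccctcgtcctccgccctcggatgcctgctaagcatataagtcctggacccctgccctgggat

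Tuft cell genes went against the other secretory lines. Tuft cells are rare chemosensory cells of the epithelium. All 20 of 20 tested genes were higher in EP by edgeR, with a median of 5.22 (5.12 with bounds). Dclk1, the kinase used as the tuft marker, stood at 445 and 221 CPM in EP and 2.07, 3.67 and 2.49 CPM in stem cells (log2 6.92 ± 1.04 (SE), adjusted p = 6.9e-05). Trpm5, the taste transduction channel, stood at 299 and 130.3 against 1.52, 3.92 and 4.54 CPM (log2 5.98 ± 1.07 (SE), adjusted p = 3.5e-04). Pou2f3, the factor required for the lineage, stood at 96.0 and 44.5 against 4.75, 5.21 and 3.93 CPM (log2 3.93 ± 0.82 (SE), adjusted p = 0.0011). EP replicate 1 was the higher EP library for each, and every stem cell library was low. Gnat3, gustducin, had 0 counts in the stem cell libraries and was at least 28.2-fold higher in EP. The eicosanoid genes Ptgs1 (5.47), Alox5ap (4.86) and Hpgds (4.29) were higher too.

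The tuft result depended on which reference was used. The summed CPM of the list were 3058 and 1575 in EP, 51.3, 73.5 and 67.9 in Lgr5-GFP-Cre cells, 2497 and 3613 in Lgr5-GFP-DTR cells and 278 and 242 in DBZ-treated crypts. Against Lgr5-GFP-DTR cells 0 of 20 were higher and 1 was lower, the leukotriene synthase gene Ltc4s (log2 -2.49 ± 0.71 (SE), adjusted p = 0.012), with a median of -0.48. The call of Ltc4s was lost with either EP library left out, and 4 of the 20 were lower with the compared groups alone. That comparison called 5410 genes, 36.5% of those tested, 3144 (21.2%) higher and 2266 (15.3%) lower. Against DBZ-treated crypts 0 of 20 were called by edgeR in the fit over 11 groups, where 18 were higher at an unadjusted p below 0.05. By contrast 18 were called higher by edgeR with the compared groups alone, 8 with no filter on low counts and 6 by DESeq2. The list had a median of 3.23, and EP sums were above those of both crypt libraries. The comparison with DBZ-treated crypts called 365 genes, 2.46% of those tested, 85 (0.573%) higher and 280 (1.89%) lower. The higher calls fell to 8 without EP replicate 1, 36 without EP replicate 2 and 17 without DBZ replicate 2, and rose to 159 with no filter on low counts, 135 with the compared groups alone and 212 by the DESeq2 Wald test. The lower calls were 133, 161 and 171 without the same libraries, and 335, 181 and 445 in those fits. These comparisons share the EP libraries with the first and are not independent of it. Of the 4 groups compared, the Lgr5-GFP-DTR libraries also held the highest Paneth sums, 250511 and 175107 CPM, so the sorted stem cells of the 2 lines differed in their levels of tuft and Paneth genes.

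Among genes of cells outside the epithelial lines, most leukocyte genes and a minority of stromal genes were higher in EP. Of 17 lymphocyte genes 17 were higher, of 14 myeloid and mast cell genes 11, and of 15 tested stromal, endothelial, muscle and nerve genes 5. The share higher over all genes was 22.2%, and 0 were lower in any of the 3 lists. Ptprc, the common leukocyte antigen, stood at 86.8 and 47.9 CPM in EP and 0, 1.48 and 1.44 CPM in stem cells (log2 6.04 ± 0.72 (SE), adjusted p = 8.2e-06). Gzma, a granzyme of intraepithelial lymphocytes, stood at 100.1 and 80.0 against 10.5, 14.5 and 20.8 CPM (log2 2.55 ± 0.66 (SE), adjusted p = 0.0055). Cd3e, of the T cell receptor complex, stood at 18.7 and 16.2 against 2.41, 2.77 and 3.14 CPM (log2 2.65 ± 0.66 (SE), adjusted p = 0.0042). The mast cell protease Mcpt1 stood at 29.5 and 11.5 against 0, 0.836 and 0.699 CPM (log2 5.25 ± 1.14 (SE), adjusted p = 0.0022). No stem cell library reached an EP library for these 4 genes. Defining macrophage, endothelial and fibroblast markers were low: Csf1r gave 0.441 and 0.763 CPM, C1qa 0.241 and 1.18 CPM, Pecam1 0.561 and 0.921 CPM and Col1a1 0.681 and 0.604 CPM in EP. Even so, Col1a1 had 36 counts in EP and 1 in stem cells, and Csf1r 35 and 0. Other members of these lists also had more counts in EP: Dcn 362 against 0 (at least 113-fold), Col3a1 170 against 0 (at least 53.2-fold), C1qb 103 against 1 and C1qc 62 against 0. Myh11 had 1 count in EP and 4 in stem cells.

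Summed levels were 393 and 337 CPM for the lymphocyte list in EP and 28.9, 51.5 and 55.3 CPM in stem cells, 99.2 and 84.0 against 8.27, 10.2 and 12.0 CPM for the myeloid list, and 86.9 and 60.5 against 6.61, 8.75 and 7.99 CPM for the stromal list. Of the stromal sums in EP, Fn1 alone gave 63.0 and 28.9 CPM. DBZ-treated crypts, also unsorted, held 107 and 219.6 CPM of the lymphocyte list. Between the crypts edgeR called 2.46% of all genes. Of the 17 lymphocyte genes 0 were called by edgeR or DESeq2 (2 higher at an unadjusted p below 0.05), with a median of 0.82. The part that these cells play in other differences was not tested. Of 22 interferon and antigen presentation genes 3 were higher, Usp18, Ifit1 and Ddx60, against 22.2% of all genes. The calls of Ifit1 and Ddx60 were lost without EP replicate 1. Summed levels of that list were 2586 and 2656 CPM in EP and 3581, 2548 and 3091 CPM in Lgr5-GFP-Cre cells. Usp18 stood at 16.2 and 5.81 CPM in EP and 2.41, 0.901 and 2.45 CPM in stem cells (log2 2.50 ± 0.45 (SE), adjusted p = 3.5e-04).

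**Figure D5:**
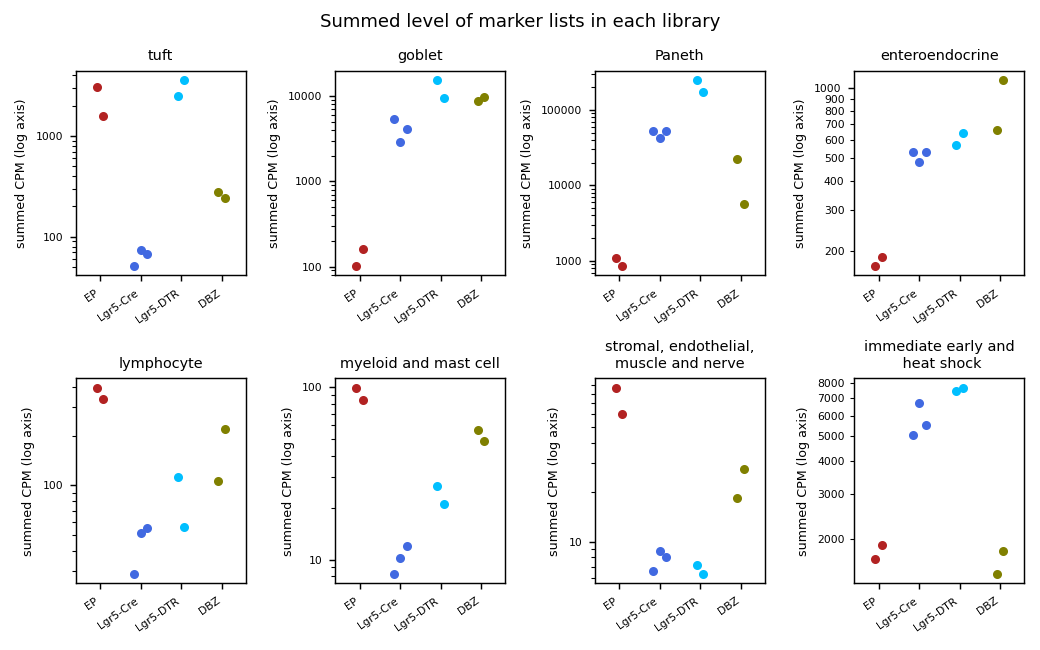
Summed CPM of 8 marker lists in each library on log axes, 1 point per library, for EP, Lgr5-GFP-Cre cells, Lgr5-GFP-DTR cells and DBZ-treated crypts. EP are lowest for goblet, Paneth and enteroendocrine genes, are far above Lgr5-GFP-Cre cells for tuft and leukocyte genes, and share low immediate early sums with the DBZ-treated crypts.

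Immediate early and heat shock genes, which cells switch on within minutes of a stimulus, were lower in EP for 16 of 19 and higher for 0, with a median of -2.82. Fos stood at 32.1 and 43.4 CPM in EP and 607, 1203 and 972 CPM in stem cells (log2 -4.62 ± 0.50 (SE), adjusted p = 3.1e-06). Jun, its partner, stood at 38.2 and 28.6 against 620.5, 950.3 and 684 CPM (log2 -4.49 ± 0.37 (SE), adjusted p = 2.7e-07). Atf3, a stress-induced factor, stood at 7.58 and 6.29 against 161, 222 and 211 CPM (log2 -4.83 ± 0.48 (SE), adjusted p = 1.3e-06). Dusp1, a phosphatase of stress kinases, stood at 5.85 and 3.24 against 148, 206 and 167 CPM (log2 -5.26 ± 0.37 (SE), adjusted p = 4.9e-08). EP and stem cell values were far apart for each. Egr1, Fosb, Nr4a1, Junb, Ier2 and Zfp36 were lower with log2 differences from -7.06 (Fosb) to -2.13 (Zfp36). The near-identical heat shock genes Hspa1a and Hspa1b, between which reads are uncertain, varied strongly among stem cell libraries (105, 3.99 and 19.4 CPM for Hspa1a in stem cells, 1.88 and 1.14 in EP), and their calls were lost without EP replicate 1, EP replicate 2 or Lgr5-GFP-Cre replicate 1. Of the list, 2 genes were called higher without Lgr5-GFP-Cre replicate 1.

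The list separated sorted from unsorted samples. Its summed CPM were 1680.5 and 1909 in EP and 1474 and 1810.3 in DBZ-treated crypts, both unsorted, and 5058, 6737 and 5509 in Lgr5-GFP-Cre and 7446 and 7696 in Lgr5-GFP-DTR cells, both digested and sorted. Against Lgr5-GFP-DTR cells 17 of 19 were lower. Against DBZ-treated crypts, where edgeR called 2.46% of all genes, 0 of 19 were called by edgeR or DESeq2 (3 higher at an unadjusted p below 0.05). The secreted matrix protein gene Cyr61, an early target of Yap, was lower with them (2.49 and 1.72 against 99.5, 140.5 and 124 CPM; log2 -5.86 ± 0.61 (SE), adjusted p = 1.9e-06), at 123 and 89.9 CPM in Lgr5-GFP-DTR cells and 2.54 and 5.73 CPM in DBZ-treated crypts. Areg and Hbegf, listed above among the EGF ligands, were at 0.608 and 2.27 and 7.61 and 17.2 CPM in DBZ-treated crypts. Preparation and cell identity cannot be told apart for these genes in the comparison with sorted cells. Of 10 genes of the regenerating or fetal-like epithelium 3 were higher and 1, Cyr61, lower; without EP replicate 2, 0 were higher.

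The absorptive and stem cell lists were then read against the other references. Against Lgr5-GFP-DTR cells hydrolases were higher for 13 of 23, sugar and amino acid transporters for 13 of 18 and cholesterol genes for 13 of 21. The share higher over all genes was 21.2%. Cholesterol genes fell to 6 with the compared groups alone, hydrolases to 6 without EP replicate 1 and transporters to 8 without EP replicate 1 or Lgr5-GFP-DTR replicate 2. For Sis the Lgr5-GFP-DTR libraries held 65.7 and 52.0 CPM (log2 3.40 ± 0.61 (SE), adjusted p = 4.1e-04), and for Slc5a1 212 and 154 CPM (log2 2.86 ± 0.50 (SE), adjusted p = 3.5e-04). Stem cell genes were lower for 6 of 21 and Wnt genes for 6 of 16, against 15.3% of all genes. Their medians were -0.38 and -0.60, smaller than the -1.18 and -1.17 against Lgr5-GFP-Cre cells. Lgr5 stood at 114 and 88.9 CPM (log2 -2.94 ± 0.45 (SE), adjusted p = 1.0e-04). Olfm4 stood at 2707 and 2947 CPM (adjusted p = 0.26 in the fit over 11 groups) and was called lower only in fits of the compared groups alone. The Wnt count was 3 with either EP library left out.

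The DBZ-treated crypts came from animals given a Notch inhibitor, and their Atoh1 levels, given above, lay above those of the Lgr5-GFP-Cre cells. Their summed Notch target levels were 164 and 43.8 CPM. Those sums were 63.4 and 80.5 CPM in EP and 341, 295 and 306 CPM in Lgr5-GFP-Cre cells. Against these crypts 0 of 18 sugar and amino acid transporters and 0 of 23 hydrolases were higher in EP by edgeR in the fit over 11 groups (2 and 1 at an unadjusted p below 0.05). There was 1 of each by DESeq2, and 1 of each by edgeR with no filter on low counts or with the compared groups alone. Of all genes, 0.573% were called higher and 1.89% lower in this comparison, so 0 higher in lists of this size is near the background share. The list medians were -0.21 for the transporters and -0.87 for the hydrolases. Their sign depended on single libraries: without DBZ replicate 2 they were 0.42 and 0.017, and without DBZ replicate 1 -0.52 and -1.37. Summed hydrolase levels were 3943 and 2429 CPM in EP and 2914 and 6951 CPM in DBZ-treated crypts. Of the hydrolases 4 were lower, and 1 with either EP library or DBZ replicate 2 left out. Among the latter, the phospholipase Plb1 stood at 0.200 and 0.318 CPM in EP and 45.3 and 46.7 CPM in DBZ-treated crypts (log2 -7.42 ± 0.92 (SE), adjusted p = 5.7e-05). The secretory lists were lower in EP for 17 of 21 goblet, 15 of 17 Paneth and 25 of 28 enteroendocrine genes, with Muc2 at 624 and 428 CPM in DBZ-treated crypts (log2 -6.23 ± 0.44 (SE), adjusted p = 6.4e-08). Leaving out EP replicate 1 gave 9 Paneth and 16 enteroendocrine genes. The stem cell genes Ascl2 (log2 1.61 ± 0.41 (SE), adjusted p = 0.044) and Gkn3 (34.8 and 77.7 CPM in EP, 1.83 and 0.650 in DBZ-treated crypts; log2 5.48 ± 0.68 (SE), adjusted p = 7.6e-05) were higher in EP, the former not with either EP library or DBZ replicate 2 left out. Gkn3, a gastrokine of Lgr5 cells, was not called against Lgr5-GFP-Cre cells (166, 103 and 145 CPM; log2 -1.29 ± 0.51 (SE), adjusted p = 0.053), but was called lower under 8 of 12 alternatives. Lgr5 itself was 23.6 and 6.90 CPM in DBZ-treated crypts and was not called (log2 -0.21 ± 0.42 (SE), adjusted p = 0.97).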

How the data were processed

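RNA of the 4 groups described here was prepared with a SMART-Seq v4 kit, and that of 3 other libraries in the fit (Rbpj-deleted crypts and 1 CD274+ CD69+ control) with TruSeq V2, all read as 75 bp single ends, per the labels' protocols. The authors deposited 1 table of raw counts per gene. Bowtie2, TopHat2 2.0.6, DESeq2 and build mm10 are named in the submitters' processing notes, without their roles; how reads matching several genes were counted is not stated. All 25 columns matched a label. The 24 libraries of 11 groups with replicates were fitted together in edgeR 4.0.16 (R 4.3.3, limma 3.58.1): filterByExpr (minimum count 10, total 15) kept 14837 of 24062 genes, TMM scaling was applied, and glmQLFTest p-values were adjusted by the Benjamini-Hochberg method and called below 0.05. The lone irradiated library was left out. CPM carry no gene length correction, so levels are not compared between genes. The SE of a log2 difference is its size divided by the square root of the quasi-likelihood F. A group with 0 counts was given a floor of 3 counts over the group; ratios with 1 to 3 counts carry an exact 95% interval of counting error only.

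Genes named were the targeted and reporter genes, the 12 largest differences in each direction among called genes with no overlap and a mean of at least 20 CPM, and members of 37 gene lists: up to 5 called members of lowest p, the most expressed member not called, and others for their role; some of these are not reported here. The groups, lists and motifs were chosen with earlier results of these data known. Counts for each list, calls of named genes in the further comparisons and sums without the leading member, under the alternatives, were added after seeing the data. Alternatives were other scalings, DESeq2 1.42.0, no filter, fewer libraries, a replicate block and leaving out each library. Promoter sequences are from RefSeq, GRCm38.p6.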

Additional observations from a re-analysis of the deposited data

How the results depend on the processing

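Calls shared between any alternative and the reported fit kept their direction. For EP against Lgr5-GFP-Cre cells the 5844 calls became 3594 with an absolute log2 difference of at least 1 required and ranged from 2845 (without EP replicate 1) to 5841 (without Lgr5-GFP-Cre replicate 2) with single libraries left out. EP against Lgr5-GFP-DTR cells gave 2853 calls with the compared groups alone, against 5410, and 2732 to 4939 with a library left out. EP against DBZ-treated crypts gave 657 calls with the DESeq2 Wald test, against 365, and 141 to 442 with a library left out. Other scalings, no filter on low counts and, for the first comparison, the DESeq2 Wald test and the compared groups alone stayed within 1.5 times. Without the 3 TruSeq libraries the first comparison gave 5356 calls. In the first comparison the lower genes of fat burning were 8 and of enterocyte transcription factors 7 by DESeq2, against 5 and 4, and with the compared groups alone 8 of 12 stromal genes were higher, 2 interferon genes lower and 2 junction genes lower. Of 364 named genes called, 202 kept the call in all alternatives.

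With the replicate number as a block the 3 comparisons gave 1656, 2352 and 219 calls, and 13 of 20 tuft genes were called higher than in DBZ-treated crypts. Deviations of same-numbered libraries correlated at -0.179 and -0.19 in the first comparison. The deviations of the 2 EP libraries are mirror images, so these values cannot exclude a shared day or batch. EP and the sorted cells came from mice of different genotypes. The labels do not say that equal numbers share a litter or day, so they were not treated as pairs. With 2 EP libraries, each value of that group rests on few samples.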
